A study of Petunia x hybrida with 9 samples.

Results

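The comparison described here sets corollas of the petunia line A9 against wild-type corollas. Both are Petunia x hybrida cultivar Mitchell, a white-flowered, strongly scented petunia. A9 is 1 line, described by the labels as an overexpressor of PhADT, and the series title says that the overexpressed gene is a site-directed mutant. A label naming the change R353A stands on every sample, wild type included, so it does not separate the groups. The promoter that drives the transgene, the number of plants behind a library and the relation of the libraries to separate plants are not given in the labels, so p-values describe how far these libraries scatter, and that scatter may be technical. At least 8 corollas went into each sample, harvested at 20 h on day 2 after flower opening from plants in a greenhouse lit from 6 to 21 h, and no other treatment is named. The members were the 6 libraries of these groups, 3 per group, out of 9 in the series.

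The deposited values are FPKM, which divide the fragments of a locus by its length and by the size of the library, for 94534 loci on assembled contigs. The 52525 loci that averaged 1 FPKM or more in the 6 libraries were kept. Of these, 46413 had a best match among tomato proteins, and they were summed to 12724 tomato proteins, so that a gene split over many contigs counted once. The median protein took 3 loci, and 546 proteins took more than 10. The names below are those of the closest tomato protein, with a median identity of 82.5%, and not of petunia genes. A summed FPKM depends on how many contigs a gene was split into and can be compared between samples, not between proteins. Changes are A9 minus wild type on the log2(summed FPKM + 1) scale with their standard errors (SE), which understates the change of low genes. A protein was called when limma gave it an adjusted p (Benjamini-Hochberg, over all 12724 proteins) under 0.05. Values in each library are in the order of replicates 1, 2 and 3, and an error after ± is an SD over 3 libraries.

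Arogenate dehydratase (ADT) makes phenylalanine from arogenate in plastids, the closing step of a route that starts with the shikimate pathway and branches at chorismate and at prephenate. ADT proteins are usually annotated as prephenate dehydratases. In petunia corollas phenylalanine feeds the phenylpropanoid pathway and the benzenoid and phenylpropanoid volatiles that are released in the evening, and those precursors also lead to flavonoids and lignin. The comparison asks which transcripts differ in such a tissue between the overexpressing line and wild type. Whether a difference comes from the mutant enzyme or from something else about the line was not tested.

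Low FPKM values come in steps of 1 fragment, and these steps gave a depth of 30600000, 32700000 and 31100000 fragments for the wild-type libraries and 35100000, 43100000 and 31900000 in A9. Loci with no fragment numbered 2042, 1881 and 2078 in wild type and 1016, 888 and 1147 in A9. Pairs of libraries correlated on log2(FPKM + 1) over loci, themselves no replicates, at Pearson coefficients that were at least 0.972 within a group and at least 0.904 between groups. No tomato protein name held the words for the petal identity factors DEFICIENS, GLOBOSA, TM6, APETALA3 or PISTILLATA, so the labelled tissue was not checked by those names. The 13 measured pollen and anther proteins summed to between 272 and 339 FPKM in wild type and between 258 and 283 FPKM in A9. No viral protein was measured.

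A9 differed from wild type in 2837 of 12724 tomato proteins. Of these, 1285 (10.1% of those tested) were higher in A9 and 1552 (12.2%) were lower, and 349 rose and 286 fell by at least 2-fold. The median change of all proteins was -0.006. The libraries of the groups did not overlap in 2577 proteins that were higher and 2945 that were lower, so lack of overlap alone is common. Among single loci 4058 (7.73%) were higher and 4902 (9.33%) lower. The count of proteins fell to 1732 without A9 replicate 3 and to 1564, 1780 and 1225 without wild-type replicates 1, 2 and 3. In each of the 6 fits that left out 1 library, 1086 of the 2837 calls were kept with their direction, and so were 481 of the 635 calls of at least 2-fold. Each named call below was kept in all 6 of those fits, unless its paragraph says otherwise. Named proteins and loci that averaged under 1 FPKM in 1 group passed the filter only through the other group. For these the filter itself favoured a difference, which the adjusted p does not allow for. In bulk tissue, fewer cells of a type and less RNA per cell cannot be told apart.

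**Figure D1:**
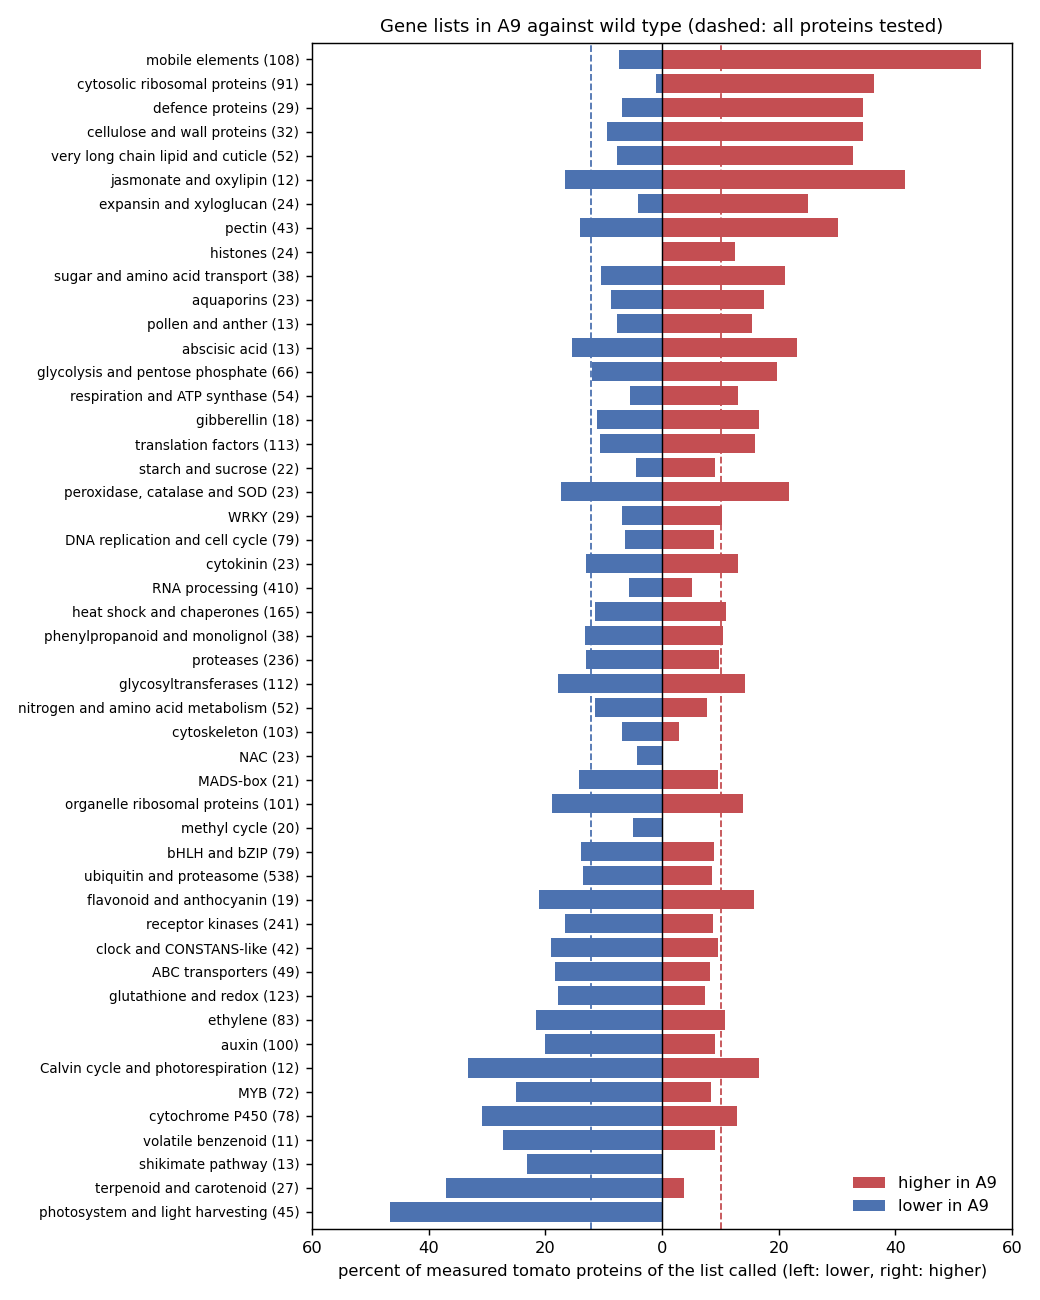
Percent of the measured tomato proteins of each list that were called higher (right, red) or lower (left, blue) in A9, for lists with at least 10 measured members, whose number stands in parentheses. Dashed lines mark 10.1% and 12.2%, the percentages over all proteins tested; mobile elements reach 54.6% higher and photosystem proteins 46.7% lower.

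The dehydratase itself comes first, since it is the gene that the line's label names. Of the 14 measured loci with a prephenate dehydratase as closest tomato protein, 5 rose in A9, and all 5 matched the same tomato protein, Solyc06g074530.1.1. XLOC_018765 stood at 0.0389, 0 and 0 FPKM in wild type and at 108, 80.8 and 97.0 in A9 (log2 change 6.56, SE 0.12, adjusted p = 4.88e-07 over all loci). Its 1111 bases matched 346 residues at 86.13% identity. XLOC_018769, XLOC_018770, XLOC_018771 and XLOC_018772 are contigs of 5416 to 7412 bases that matched 433 residues at 87.99%, and they were at 0.492 to 0.991 FPKM in every wild-type library and at 21.7 to 39.8 FPKM in every A9 library. These 5 loci come from 1 assembled cluster and may share reads. Their sum was 2.98, 2.84 and 2.87 FPKM in wild type and 242, 186 and 223 in A9. At these loci A9 was higher, as labelled, but the 5 loci were picked because they rose, so this direction is no separate check. All 5 were under 1 FPKM in wild type and passed the filter only through A9. The sum over all 14 loci, given below, was not picked by direction, but it includes these 5 loci. The deposited annotation does not say whether the 5 loci are the transgene, and their sequence was not read.

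The abundant dehydratase loci did not pass the threshold. The 9 other loci summed to 2907.5, 4033.9 and 3438.2 FPKM in wild type and to 2938.5, 3647.4 and 3151.0 FPKM in A9, so that the groups overlapped. They include XLOC_053179, at 641 FPKM in wild type and 619 in A9, whose 289 bases are near the length that the FPKM calculation appears to subtract, so that its level is uncertain, and 2 low loci that fell, both of Solyc11g072520.1.1. Over all 14 loci the sum was 3462.7 ± 563 FPKM in wild type and 3462.5 ± 335 in A9 (exact two-sided permutation test, p = 1, with 0.1 the smallest p that 3 against 3 libraries allow). The 5 loci that rose gave 217 FPKM of that sum in A9, below the wild-type SD, so this test could not show their rise. Among the 4 tomato dehydratases, Solyc06g074530.1.1 changed by 0.02 and Solyc11g066890.1.1 by -0.08, with adjusted p of 0.941 and 0.802. Solyc11g072520.1.1 was at 20.6, 17.5 and 20.9 FPKM in wild type and 13.8, 14.6 and 14.5 in A9 (log2 change -0.43, SE 0.09, adjusted p = 0.0185), a fall that lost its call without 3 of the libraries in turn (adjusted p up to 0.0736, without wild-type replicate 3). Solyc02g080620.2.1 stood near 1 FPKM in both groups.

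**Figure D2:**
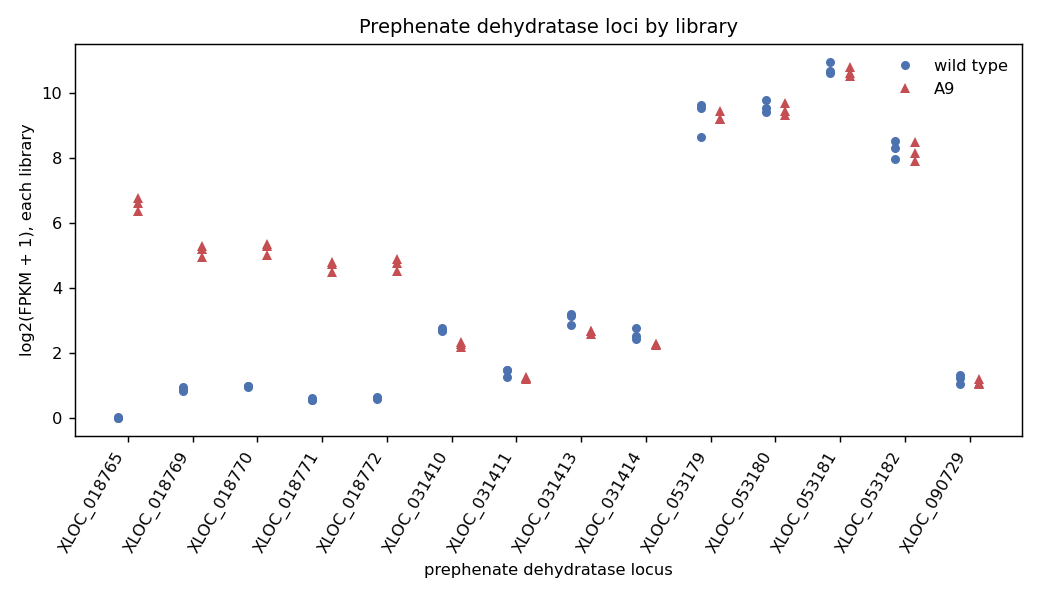
log2(FPKM + 1) of each prephenate dehydratase locus in each library, with wild type as circles and A9 as triangles. The 5 loci at the left lie below 1 in wild type and between 4.5 and 7 in A9, and the abundant loci XLOC_053179 to XLOC_053182 overlap between the groups.

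Upstream of the dehydratase, 1 of 13 measured shikimate pathway proteins changed by more than 2-fold. A shikimate dehydrogenase, Solyc10g038080.1.1, which reduces dehydroshikimate to shikimate, was at 984, 955 and 946 FPKM in wild type and at 220, 236 and 212 in A9 (log2 change -2.11, SE 0.08, adjusted p = 3.45e-05). The groups were far apart, and all 8 of its loci fell. These loci come from 1 assembled gene and may share reads, so they do not count as separate evidence. The other shikimate dehydrogenase, Solyc01g067750.2.1, was at 263 ± 16.3 FPKM in wild type and 199 ± 13 in A9 (log2 change -0.40, SE 0.08, adjusted p = 0.0196), and lost its call without 3 of the libraries (adjusted p up to 0.0717, without wild-type replicate 3). The third protein called, Solyc01g105420.2.1, is named as the entry enzyme DAHP synthase and was at 8.28 ± 0.913 and 6.0 ± 0.752 FPKM. It is 1 locus of an assembled gene whose loci XLOC_040668 and XLOC_040670 matched another DAHP synthase, Solyc11g009080.1.1, so it may not be a separate gene. Its call was lost in each of the 6 fits without 1 library (adjusted p up to 0.132, without wild-type replicate 1). It was also lost with the replicate number as a block (adjusted p = 0.0708).

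Of the 13 shikimate proteins 3 fell (23.1%, beside 12.2% over all proteins) and none rose (beside 10.1%), in a list too short to read the lack of rises as a result. The abundant DAHP synthase Solyc04g074480.2.1 was at 6125.7, 7299.5 and 6538.3 FPKM in wild type and 6871.4, 7402.9 and 6829.4 in A9, with overlapping groups (adjusted p = 0.654). EPSP synthase Solyc05g050980.2.1, which joins phosphoenolpyruvate to shikimate phosphate, overlapped too, at 2277.1 ± 262 and 2088.4 ± 258 FPKM (adjusted p = 0.542). Chorismate synthase Solyc04g049350.2.1, at the end of the pathway, was at 2490.2, 2383 and 2705.2 FPKM in wild type and 2024.1, 2081 and 1826.7 in A9. Its libraries did not overlap, and its change of -0.35 missed the threshold (adjusted p = 0.0513).

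At the branch from chorismate, chorismate mutase 1 (Solyc02g088460.2.1), the plastid enzyme that makes prephenate, was at 470, 542 and 545 FPKM in wild type and 432, 418 and 358 in A9 and also missed the threshold (log2 change -0.37, adjusted p = 0.0516). Chorismate mutase 2 (Solyc11g017240.1.1) fell from 29.5 ± 3.8 to 19.5 ± 3.06 FPKM (log2 change -0.58, SE 0.14, adjusted p = 0.0288), a call lost without 5 of the libraries in turn (adjusted p up to 0.0735, without wild-type replicate 2). Of the 3 proteins named as prephenate or arogenate dehydrogenase, the enzyme of the tyrosine branch that competes with the dehydratase, 2 rose from low levels. Solyc07g007590.1.1 was at 4.15, 4.75 and 3.94 FPKM in wild type and 7.75, 7.91 and 9.23 in A9 (log2 change 0.82, SE 0.10, adjusted p = 0.00324), and its most abundant locus alone gave an adjusted p of 0.263. Solyc09g011870.1.1 was at 1.01, 1.28 and 1.05 FPKM in wild type and 3.52, 5.72 and 11.3 in A9 (log2 change 1.77, SE 0.34, adjusted p = 0.0142; 0.0551 without wild-type replicate 3). Its loci matched at a median identity of only 58.4%. The loci of both proteins come from 1 assembled cluster and may share reads, so the 2 rises may not be separate. None of the 8 tryptophan branch proteins was called, beside 22.3% of all proteins, and their median change was -0.10.

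**Figure D3:**
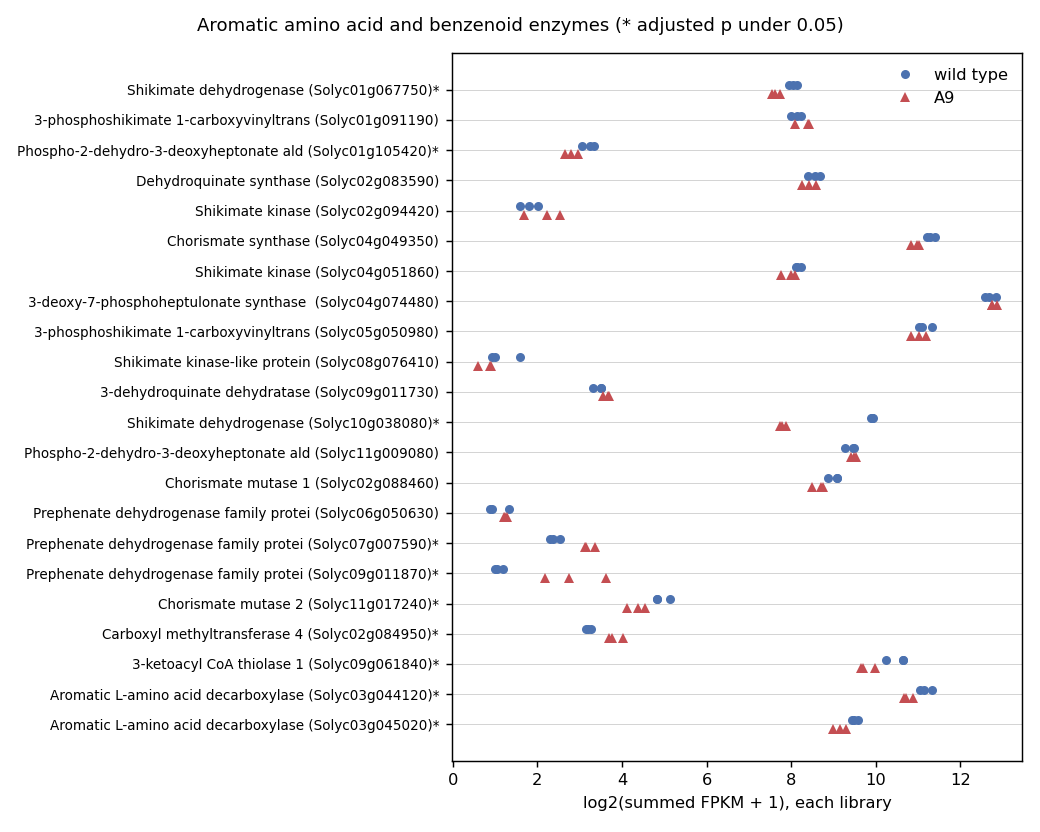
log2(summed FPKM + 1) in each library for the measured shikimate, phenylalanine and tyrosine branch proteins and the called benzenoid proteins, with wild type as circles and A9 as triangles. Asterisks mark an adjusted p under 0.05, and shikimate dehydrogenase Solyc10g038080 shows the widest gap, at 961 ± 19.9 against 223 ± 12.5 FPKM.

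Downstream of phenylalanine, of 38 phenylpropanoid and monolignol proteins 4 rose and 5 fell (10.5% and 13.2%, beside 10.1% and 12.2% over all proteins), and their summed level was 56714 ± 5298.9 FPKM in wild type and 51326.2 ± 4402.2 in A9. The counts ran from 0 to 3 higher and from 1 to 5 lower when 1 library was left out, the fewest without wild-type replicate 3. A cinnamyl alcohol dehydrogenase of monolignol synthesis, Solyc12g055820.1.1, fell from 79.7 ± 5.8 to 60.5 ± 0.805 FPKM (log2 change -0.39, SE 0.07, adjusted p = 0.0143; 0.056 without wild-type replicate 3). The abundant hydroxycinnamoyl transferase Solyc03g117600.2.1 was at 1719.8, 2079.7 and 1901.6 FPKM in wild type and 1440.8, 1349.5 and 1378.6 in A9, and its fall lost its call without 4 of the libraries (adjusted p up to 0.087, without wild-type replicate 3).

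Among 11 volatile benzenoid proteins 1 rose (9.09%, beside 10.1% over all proteins) and 3 fell (27.3%, beside 12.2%). With the replicate number as a block 2 rose and 1 fell. The falls numbered 0 or 1 in each fit without 1 library. 3-ketoacyl-CoA thiolase 1 (Solyc09g061840.2.1), which in petunia closes the beta-oxidative route to benzoyl-CoA, was at 1217.2, 1610.7 and 1607.4 FPKM in wild type and 807, 1012.4 and 828 in A9 (log2 change -0.74, SE 0.15, adjusted p = 0.0177). The groups did not overlap, but the call was lost without 4 of the libraries in turn (adjusted p up to 0.0698, without wild-type replicate 3) and after quantile normalization (0.0528). A pair of aromatic amino acid decarboxylases, of the family that includes the petunia phenylacetaldehyde synthase, were called lower. Solyc03g044120.1.1 went from 2315.3 ± 225 to 1734.6 ± 129 FPKM and Solyc03g045020.2.1 from 727 ± 39.8 to 569 ± 57.6 FPKM, and both calls were lost with the replicate number as a block (adjusted p = 0.0595 and 0.0581) and without 6 and 5 of the libraries in turn (adjusted p up to 0.136 and 0.153, without wild-type replicate 3). A carboxyl methyltransferase, Solyc02g084950.2.1, of the family that makes methyl esters such as methyl benzoate, rose from 8.26 ± 0.384 to 13.3 ± 1.81 FPKM (log2 change 0.62, SE 0.11, adjusted p = 0.0103).

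Of 49 ABC transporters 4 rose (8.16%, beside 10.1% over all proteins), 9 fell (18.4%, beside 12.2%) and 36 were not called, with a median change of -0.06. Their sum went from 4905.9, 5322.4 and 5756.5 FPKM in wild type to 3492.2, 3127.6 and 3220.7 FPKM in A9. Most of that difference was 1 protein, ABC transporter G family member 11 (Solyc01g105450.2.1), whose Arabidopsis namesake exports cuticular lipids. It was at 3450.2, 3904.4 and 4264.1 FPKM in wild type and 2086.9, 1793.3 and 1924.3 in A9 (log2 change -1.0, SE 0.12, adjusted p = 0.00301). ABC transporter G family member 40 (Solyc12g098210.1.1) fell from 140 ± 6.13 to 77.2 ± 3.18 FPKM (log2 change -0.85, SE 0.07, adjusted p = 0.000738). A low ABC transporter, Solyc03g120980.2.1, rose from 0.46 ± 0.00997 to 2.94 ± 0.22 FPKM and passed the filter only through A9. The count of ABC transporters called higher was 1 without A9 replicate 2 or 3 and 2 without any 1 of the wild-type libraries, and that of lower ones was 6 to 9 without 1 library. With the replicate number as a block, 7 were called higher.

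Of 112 glycosyltransferases 16 rose (14.3%, beside 10.1% over all proteins), 20 fell (17.9%, beside 12.2%) and 76 were not called, with a median change of 0.06. Their sum was 5798.7 ± 250 FPKM in wild type and 3392 ± 377 in A9. Most of that difference lay in Solyc08g006350.2.1, Solyc05g006140.1.1 and Solyc10g085870.1.1, described below. The 16 became 10, 8 and 7 without wild-type replicates 1, 2 and 3, while the 20 stayed between 16 and 20, and with the replicate number as a block 28 were called higher. UDP-glucose glucosyltransferase Solyc08g006350.2.1, of the family that attaches glucose to small molecules, was at 1402.7, 1337.5 and 1418 FPKM in wild type and 404, 207 and 243 in A9 (log2 change -2.34, SE 0.23, adjusted p = 0.00152). The highest A9 library was far below the lowest wild-type library. Solyc05g006140.1.1 behaved alike, at 711, 677 and 706 FPKM and then 205, 108 and 129 FPKM (log2 change -2.29, SE 0.22, adjusted p = 0.00136), and in both proteins A9 replicate 1 was the highest of the A9 libraries. Solyc10g085870.1.1 fell from 495 ± 73.1 to 208 ± 56.8 FPKM and the low Solyc09g092500.1.1 from 19.2 ± 3.27 to 2.02 ± 1.25 FPKM. Glycosyltransferase Solyc10g080010.1.1 rose from 18 ± 1.36 to 33.6 ± 5.27 FPKM.

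Of 19 flavonoid proteins 3 rose (15.8%, beside 10.1% over all proteins), 4 fell (21.1%, beside 12.2%) and 12 were not called, and their sum was 434, 459 and 469 FPKM in wild type and 309, 308 and 325 in A9. A flavanone 3-hydroxylase-like protein (Solyc03g080190.2.1), of the dioxygenase family that hydroxylates flavanones, was at 88.1, 43.7 and 66.1 FPKM in wild type and 5.58, 1.54 and 5.19 in A9 (log2 change -3.78, SE 0.41, adjusted p = 0.00211). A malonyl-CoA anthocyanin acyltransferase (Solyc10g008680.1.1) fell from 66.1 ± 6.85 to 19.9 ± 3.29 FPKM (log2 change -1.69, SE 0.13, adjusted p = 0.000587). A chalcone synthase, the entry enzyme of the flavonoid route (Solyc09g091510.2.1), rose from 0.864 ± 0.165 to 3.29 ± 0.766 FPKM (log2 change 1.19, SE 0.16, adjusted p = 0.00422). It passed the filter only through A9. The 4 flavonoid falls became 2 without A9 replicate 1 or wild-type replicate 2 or 3, and the 3 rises became 1 without A9 replicate 1 or 3 or wild-type replicate 1 or 3. Of 27 terpenoid and carotenoid proteins 10 fell (37%, beside 12.2%) and 1 rose (3.7%, beside 10.1%). The falls were down to 6 and 5 without A9 replicates 1 and 3, and to 3 and 2 without wild-type replicates 2 and 3. With the replicate number as a block 3 of them rose. Zeta-carotene desaturase (Solyc01g097810.2.1), which adds double bonds on the way to lycopene, was at 138, 154 and 157 FPKM in wild type and 108, 115 and 93.9 in A9 (adjusted p = 0.0162, and 0.0673 without wild-type replicate 3). Carotenoid cleavage dioxygenase 1A (Solyc01g087250.2.1), which cuts carotenoids to scent ketones, went from 724 ± 109 to 495 ± 35.5 FPKM, a call lost without 4 of the libraries (adjusted p up to 0.0969, without wild-type replicate 3).

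The summed level of photosystem and antenna transcripts was lower in A9. Of 45 photosystem and light-harvesting proteins 21 fell (46.7%, beside 12.2% over all proteins) and none rose, with a median change of -0.65. The count was between 15 and 24 without any 1 of the other libraries and 12 without wild-type replicate 3. Their sum was 1599.4, 1944.1 and 1831.5 FPKM in wild type and 1009.7, 804 and 700 in A9, without overlap. Photosystem II polypeptide (Solyc07g066310.2.1) was at 334, 443 and 408 FPKM in wild type and 190, 142 and 125 in A9 (log2 change -1.38, SE 0.18, adjusted p = 0.00375). The protein named chlorophyll a-b binding 3C-like (Solyc03g005780.1.1), a light-harvesting antenna protein of a multigene family whose reads may be split between copies, fell from 269 ± 8.97 to 95.6 ± 17.4 FPKM (log2 change -1.50, SE 0.13, adjusted p = 0.00084). Photosystem II reaction center W (Solyc06g084050.2.1) fell from 176 ± 36.8 to 62 ± 10.4 FPKM (log2 change -1.48, SE 0.19, adjusted p = 0.00345). Subunit b' of the ATP synthase (Solyc06g066000.1.1), which in plants belongs to the plastid enzyme, fell from 80.9 ± 4.27 to 44.5 ± 4.72 FPKM (log2 change -0.85, SE 0.09, adjusted p = 0.00215).

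Of 12 Calvin cycle and photorespiration proteins 4 fell (33.3%, beside 12.2% over all proteins) and 2 rose (16.7%, beside 10.1%). The Rubisco small chain (Solyc02g085950.2.1), a subunit of the carbon-fixing enzyme, was at 450, 646 and 501 FPKM in wild type and 344, 263 and 211 in A9 (log2 change -0.97, adjusted p = 0.0202), a call lost without 2 of the libraries (adjusted p up to 0.0636, without wild-type replicate 3). The rises numbered 0 without A9 replicate 3 or wild-type replicate 1 or 3, and the falls 1 without wild-type replicate 3, or 2 without A9 replicate 3 or wild-type replicate 2. The low plastid glyceraldehyde-3-phosphate dehydrogenase B (Solyc04g082630.2.1), which uses NADPH in that cycle, fell from 5.49 ± 1.11 to 1.71 ± 0.669 FPKM (log2 change -1.27, SE 0.20, adjusted p = 0.00824). Photosystem and Rubisco proteins are markers of green tissue, and the part of green tissue in these samples was not tested.

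The summed level of cytosolic ribosome transcripts was higher in A9. Of 91 cytosolic ribosomal proteins 33 rose (36.3%, beside 10.1% over all proteins) and 1 fell, with a median change of 0.38. This count depended on the libraries: it was 16 and 14 without A9 replicates 1 and 3, 11 and 7 without wild-type replicates 1 and 3, 54 without A9 replicate 2 and 23 without wild-type replicate 2. The sum was 9160.7, 10134.4 and 10336.2 FPKM in wild type and 13331.5, 11152.2 and 14220.6 in A9, with A9 replicate 2 closest to wild type. 60S ribosomal protein L34 (Solyc05g007560.2.1) was at 150, 173 and 151 FPKM in wild type and 291, 270 and 397 in A9 (log2 change 1.00, SE 0.15, adjusted p = 0.00724). 60S acidic ribosomal protein P0 (Solyc05g054580.2.1), of the ribosomal stalk, rose from 138 ± 8.3 to 293 ± 76.8 FPKM (log2 change 1.05, SE 0.18, adjusted p = 0.00937).

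Proteins of organelle-type ribosomes went both ways, with 14 of 101 higher (13.9%, beside 10.1% over all proteins) and 19 lower (18.8%, beside 12.2%). Those counts were 5 to 21 higher and 7 to 21 lower without 1 library, fewest without wild-type replicate 3. 30S ribosomal protein S11 (Solyc10g083280.1.1) rose from 217 ± 16 to 386 ± 64.4 FPKM and 30S ribosomal protein S5 (Solyc02g077990.2.1) fell from 40.6 ± 1.32 to 26.3 ± 1.61 FPKM (log2 change -0.61, SE 0.07, adjusted p = 0.00286). Eukaryotic translation initiation factor 5A (Solyc12g010060.1.1), which aids elongation of peptide chains, fell from 848 ± 36 to 597 ± 35.5 FPKM (log2 change -0.51, SE 0.08, adjusted p = 0.00954). Of 24 histones 3 rose (12.5%) and none fell, and 5 rose with the replicate number as a block or without A9 replicate 2. Histone H2A Solyc01g099410.2.1, a nucleosome core protein, rose from 10.9 ± 1.8 to 18.7 ± 2.37 FPKM (log2 change 0.74, SE 0.14, adjusted p = 0.0134). Cyclin D1 (Solyc05g006050.2.1), which drives entry into DNA replication, rose from 5.83 ± 1.02 to 12.6 ± 1.34 FPKM, and cyclin-dependent kinase inhibitor 7 (Solyc02g090680.2.1), an inhibitor of the cell cycle, rose from 8.74 ± 0.547 to 17.4 ± 0.658 FPKM (log2 change 0.92, SE 0.08, adjusted p = 0.000715). Over 79 replication and cell cycle proteins 7 rose and 5 fell, at 8.86% and 6.33% below the percentages over all proteins. They were 2 without A9 replicate 1 or 3 or wild-type replicate 1 or 3 for the rises, and 0 to 2 without any library but A9 replicate 2 for the falls.

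**Figure D4:**
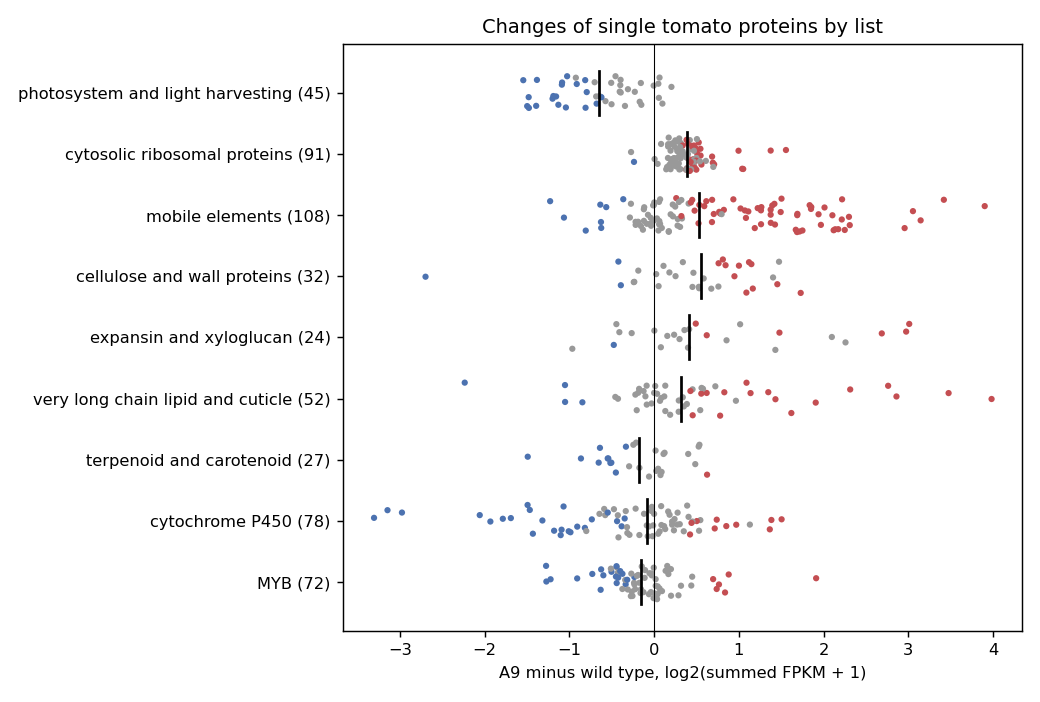
Change of each measured tomato protein (points) in 9 lists on the log2(summed FPKM + 1) scale, red where called higher in A9, blue where called lower and grey where not called, with the median of the list as a black bar. The medians are -0.65 for photosystem proteins, 0.38 for cytosolic ribosomal proteins and 0.53 for mobile elements.

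Cell wall and surface lipid transcripts were called higher more often than lower. Of 32 cellulose and wall proteins 11 rose (34.4%) and 3 fell (9.38%), and of 24 expansin and xyloglucan proteins 6 rose (25%) and 1 fell (4.17%). Of 43 pectin proteins 13 rose (30.2%) and 6 fell (14%). Over all proteins 10.1% rose and 12.2% fell. With the replicate number as a block, the rises were 19, 12 and 16, and 3 expansin and xyloglucan proteins fell. The 11 became 7 without A9 replicate 1 or wild-type replicate 3 and 6 without A9 replicate 3 or wild-type replicate 1, the 6 became 3 without wild-type replicate 3, and the 13 became 8 without wild-type replicate 3. The 6 pectin proteins that fell became 3 without any 1 wild-type library. The summed expansin and xyloglucan level was 4209.6, 2637.8 and 5434.4 FPKM in wild type and 6006.2, 3042.8 and 8858.3 in A9, so that replicate 2 was lowest in both groups and the groups overlapped. An expansin, a wall-loosening protein (Solyc04g081870.2.1), was at 0.221, 0.776 and 0.227 FPKM in wild type and 8.27, 9.43 and 13.4 in A9 (log2 change 3.01, SE 0.22, adjusted p = 0.00037). It passed the filter only through A9. A pistil extensin-like wall protein (Solyc02g078100.2.1) rose from 80.9 ± 14.5 to 142 ± 11.5 FPKM (log2 change 0.81, SE 0.14, adjusted p = 0.01). A cellulose synthase (Solyc03g005450.2.1) fell from 12 ± 0.736 to 1.02 ± 0.397 FPKM (log2 change -2.70, SE 0.15, adjusted p = 0.000149). A pectate lyase, which cuts pectin (Solyc06g071840.1.1), was listed at 0 in all 3 wild-type libraries and was at 23.1, 30.1 and 50.3 FPKM in A9. Its locus of 262 bases is shorter than the 270 to 290 bases that the FPKM calculation appears to subtract from a locus, so its level is uncertain. A pectin acetylesterase (Solyc03g025600.2.1) fell from 57.7 ± 2.04 to 33.3 ± 3.81 FPKM (log2 change -0.78, SE 0.10, adjusted p = 0.00316).

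Of 52 proteins of very long chain lipids and the cuticle 17 rose (32.7%, beside 10.1% over all proteins) and 4 fell (7.69%, beside 12.2%). The 17 stayed between 13 and 18 without 1 library. A non-specific lipid-transfer protein (Solyc10g076200.1.1), of a family that carries lipids to the cell surface, was at 36.2, 35.1 and 35 FPKM in wild type and 502, 320 and 412 in A9 (log2 change 3.47, SE 0.16, adjusted p = 8.08e-05). Solyc10g075110.1.1, another of that family, rose from 0.982 ± 0.381 to 30.3 ± 6.16 FPKM (log2 change 3.98, SE 0.19, adjusted p = 0.000105). The related Solyc03g079880.2.1 rose from 4.47 ± 1.04 to 38.3 ± 2.21 FPKM. The 3-ketoacyl-CoA synthases, which lengthen fatty acids for waxes and cutin, went both ways, and most were not called. Solyc02g085870.2.1 (log2 change 2.76, adjusted p = 0.0042) and Solyc04g080450.1.1 (0.83, adjusted p = 0.036) were called higher. Whether these 2 calls were kept without 1 library is not given here. A pair was called lower. Solyc09g083050.2.1 was at 273, 248 and 260 FPKM in wild type and 130, 134 and 112 in A9, and Solyc03g005320.2.1 fell from 108 ± 3.5 to 22.3 ± 3.29 FPKM (log2 change -2.23, SE 0.11, adjusted p = 0.000105).

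In central carbon metabolism, 13 of 66 glycolysis and pentose phosphate proteins rose (19.7%, beside 10.1% over all proteins) and 8 fell (12.1%, beside 12.2%). The 13 became 7 and 6 without wild-type replicates 1 and 3, and the 8 became 5 without A9 replicate 3 or wild-type replicate 1 and 2 without wild-type replicate 3. The sum was 7080.8, 7936.4 and 7591.8 FPKM in wild type and 8888.1, 9048.3 and 9979.6 in A9. The median change of the list was -0.02, so the higher sum does not describe a rise of the typical member. A glyceraldehyde-3-phosphate dehydrogenase of glycolysis (Solyc05g014470.2.1) was at 383, 508 and 431 FPKM in wild type and 888, 1055.2 and 1607.5 in A9 (log2 change 1.39, SE 0.23, adjusted p = 0.00886), with A9 replicate 3 highest. Fructose-bisphosphate aldolase Solyc09g009260.2.1, which splits the sugar into triose phosphates, rose from 238 ± 15.6 to 447 ± 65.3 FPKM (log2 change 0.90, SE 0.12, adjusted p = 0.00432). Sucrose phosphate synthase (Solyc09g092130.2.1) rose from 3.74 ± 0.768 to 17.4 ± 2.16 FPKM (log2 change 1.97, SE 0.15, adjusted p = 0.000443). Asparagine synthetase (Solyc01g079880.2.1), which makes the nitrogen carrier asparagine, was at 1063.7, 945 and 1039.4 FPKM in wild type and 620, 475 and 545 in A9 (log2 change -0.90, SE 0.12, adjusted p = 0.00407).

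**Figure D5:**
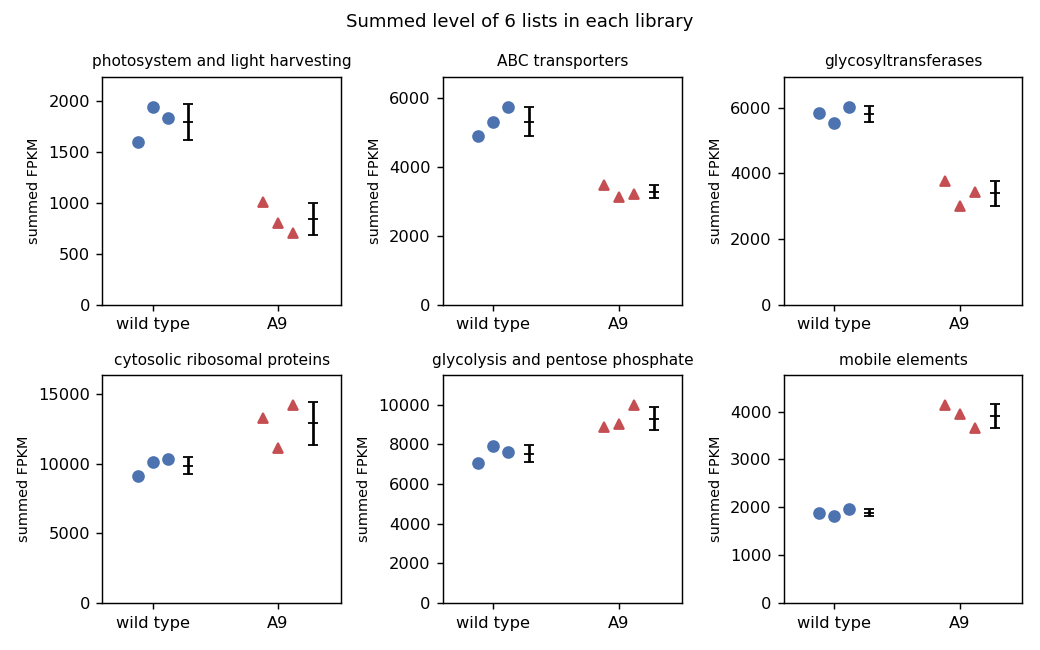
Summed FPKM of 6 lists in each library (points; horizontal bars with whiskers are the mean and SD over 3 libraries), with axes from 0. The sums of photosystem proteins, ABC transporters and glycosyltransferases are lower, and those of cytosolic ribosomal, glycolysis and mobile element proteins higher, in every A9 library than in any wild-type library. A sum can rest on a few abundant members. The median change was -0.06 for ABC transporters, 0.06 for glycosyltransferases and -0.02 for glycolysis and pentose phosphate proteins.

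Of 38 sugar and amino acid transporters 8 rose (21.1%, beside 10.1% over all proteins) and 4 fell (10.5%, beside 12.2%), and the 8 were 5 without any 1 A9 library and 3 without any 1 wild-type library. Amino acid permease Solyc05g008760.2.1 fell from 15.1 ± 0.835 to 5.16 ± 0.371 FPKM (log2 change -1.39, SE 0.08, adjusted p = 0.00018), while amino acid transporter Solyc05g052300.2.1 rose from 5.34 ± 1.57 to 21.7 ± 6.74 FPKM (log2 change 1.83, SE 0.26, adjusted p = 0.00583). An aquaporin-like protein (Solyc01g111660.2.1), of the family of water channels, was at 1003.5, 1475.5 and 1020.5 FPKM in wild type and 431, 225 and 221 in A9 (log2 change -2.04, SE 0.29, adjusted p = 0.00538). Over 23 aquaporins 4 rose (17.4%) and 2 fell (8.7%), and the sum in A9 was 3914.4, 1898.5 and 3385.2 FPKM beside 4410.8 to 4723.4 FPKM in wild type. The groups did not overlap, and A9 replicate 2 was lowest.

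Among hormone proteins, of 100 auxin proteins 9 rose (9%, beside 10.1% over all proteins) and 20 fell (20%, beside 12.2%). The 20 became 13 without wild-type replicate 1 or 2 and 10 without wild-type replicate 3. The 9 were 3 to 8 without 1 library, fewest without wild-type replicate 3. A GH3-like protein (Solyc10g008520.2.1), of the family that conjugates auxin and other acids to amino acids, was at 2298.6, 2369.4 and 2516.6 FPKM in wild type and 1287.9, 1281.4 and 1104.4 in A9 (log2 change -0.97, SE 0.10, adjusted p = 0.00186). Auxin-repressed protein Solyc02g077880.2.1 fell from 1134.9 ± 40.2 to 596 ± 93.4 FPKM (log2 change -0.94, SE 0.13, adjusted p = 0.00499). Of 83 ethylene proteins 9 rose (10.8%, beside 10.1%) and 18 fell (21.7%, beside 12.2%). The 18 became 11 without A9 replicate 3 or wild-type replicate 3, and the 9 became 5 and 4 without A9 replicate 3 and wild-type replicate 2. With the replicate number as a block, 19 auxin and 18 ethylene proteins were called higher. Ethylene-responsive transcription factor Solyc03g026270.1.1 rose from 2.51 ± 0.234 to 13.2 ± 7.35 FPKM (log2 change 1.89, SE 0.34, adjusted p = 0.0121).

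Of 12 jasmonate and oxylipin proteins 5 rose (41.7%, beside 10.1% over all proteins) and 2 fell (16.7%, beside 12.2%). The rises stayed at 4 or 5 without any 1 library. The 5 include steps of jasmonate synthesis. Lipoxygenase Solyc01g099160.2.1, which oxygenates linolenic acid, was at 302, 251 and 317 FPKM in wild type and 417, 410 and 463 in A9 (log2 change 0.57, SE 0.11, adjusted p = 0.015). Allene oxide cyclase (Solyc02g085730.2.1) rose from 22.1 ± 0.307 to 35.4 ± 2.19 FPKM (log2 change 0.65, SE 0.07, adjusted p = 0.00209). A 12-oxophytodienoate reductase (Solyc07g007870.2.1) rose from 18.4 ± 0.704 to 36.7 ± 5.48 FPKM (log2 change 0.95, SE 0.12, adjusted p = 0.00311). Jasmonate ZIM-domain protein 3 (Solyc01g005440.2.1), a repressor of jasmonate responses, fell from 144 ± 1.93 to 86.2 ± 6.67 FPKM (log2 change -0.73, SE 0.08, adjusted p = 0.0019). In cytokinin signalling, response regulator ARR3 Solyc03g113720.2.1 fell from 26 ± 6.55 to 4.21 ± 0.541 FPKM (log2 change -2.35, SE 0.19, adjusted p = 0.000677), while a histidine phosphotransfer protein (Solyc11g070150.1.1) rose from 3.71 ± 0.624 to 22.1 ± 3.62 FPKM (log2 change 2.29, SE 0.15, adjusted p = 0.000273). Abscisic acid receptor PYL4 (Solyc10g085310.1.1) fell from 14.7 ± 0.553 to 4.46 ± 2.59 FPKM (log2 change -1.62, SE 0.29, adjusted p = 0.0118).

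Among regulators, 6 of 72 MYB proteins rose (8.33%, beside 10.1% over all proteins) and 18 fell (25%, beside 12.2%). The MYB family includes the petunia regulators of scent, but the tomato names do not single these out. The 18 became 11 without A9 replicate 1 and 8, 9 and 5 without wild-type replicates 1, 2 and 3, and the 6 became 3 without A9 replicate 3 and 2 without wild-type replicate 1 or 3. MYB transcription factor Solyc10g055410.1.1 was at 501, 518 and 444 FPKM in wild type and 320, 337 and 288 in A9 (log2 change -0.63, SE 0.10, adjusted p = 0.00739). The most abundant called member, Solyc08g079270.2.1, went from 2370 ± 103 to 1799.4 ± 143 FPKM, a call lost without 5 of the libraries (adjusted p up to 0.104, without wild-type replicate 2) and after quantile normalization (0.281). CONSTANS-LIKE 4 (Solyc12g005750.1.1), of the zinc finger family of day-length regulators, was at 0.0982, 3.43 and 0.197 FPKM in wild type and 62.9, 60.7 and 187 in A9 (log2 change 5.65, SE 0.65, adjusted p = 0.00252). Of 42 clock and CONSTANS-like proteins 4 rose (9.52%, beside 10.1%) and 8 fell (19%, beside 12.2%). The falls were 3 and 5 without wild-type replicates 3 and 2, and 15 with the replicate number as a block. The rises were 1 to 3 without 1 library, fewest without A9 replicate 3 or wild-type replicate 3. MADS-box factor Solyc02g089200.2.1 fell from 236 ± 6.7 to 167 ± 13.8 FPKM (log2 change -0.50, SE 0.08, adjusted p = 0.00899).

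Of 78 cytochrome P450 proteins, oxygenases of secondary metabolism, 24 fell (30.8%, beside 12.2% over all proteins) and 10 rose (12.8%, beside 10.1%). The 24 became 15 without wild-type replicate 3. The 10 became 3 to 6 without any library but A9 replicate 2, fewest without wild-type replicate 2. Solyc10g083400.1.1 was at 304, 387 and 372 FPKM in wild type and 154, 160 and 113 in A9 (log2 change -1.32, SE 0.16, adjusted p = 0.00306). Redox proteins were called lower in 22 of 123 cases (17.9%, beside 12.2%) and higher in 9 (7.32%, beside 10.1%). The lower ones were 14 without A9 replicate 3 or wild-type replicate 1 and 9 without wild-type replicate 3. With the replicate number as a block, 34 were lower and 17 higher. A glutaredoxin, a small thiol reductase (Solyc06g067960.2.1), was at 23.9, 28.5 and 27.1 FPKM in wild type and 1.23, 1.38 and 1.45 in A9 (log2 change -3.54, SE 0.09, adjusted p = 1.71e-05). Peroxidase 1 (Solyc10g076210.1.1) rose from 18.4 ± 5.7 to 113 ± 12.1 FPKM (log2 change 2.59, SE 0.23, adjusted p = 0.000934). Of 29 defence proteins 10 rose (34.5%, beside 10.1%) and 2 fell (6.9%, beside 12.2%), and the 10 became 6 without wild-type replicate 3. Their sum did not follow that count, at 3232.7, 3158.5 and 3890.7 FPKM in wild type and 3350, 1209.7 and 3502 in A9, where replicate 2 stood low. A chitinase, which degrades fungal wall chitin (Solyc10g055800.1.1), was at 3.1, 3.34 and 4.74 FPKM in wild type and 43.9, 13.8 and 63.1 in A9 (log2 change 2.90, SE 0.51, adjusted p = 0.0112).

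Of 538 ubiquitin and proteasome proteins 46 rose (8.55%, beside 10.1% over all proteins) and 73 fell (13.6%, beside 12.2%). Their sum was 43611.9, 42458.2 and 43906.6 FPKM in wild type and 36713.5, 34517.3 and 35202.6 in A9, without overlap. Those counts were 21 to 42 and 24 to 63 without 1 library, fewest without wild-type replicate 3. Cathepsin B-like protease Solyc02g076710.2.1 was at 200, 197 and 194 FPKM in wild type and 50.3, 47 and 48.2 in A9 (log2 change -2.0, SE 0.06, adjusted p = 2.42e-05). Ubiquitin-conjugating enzyme 22 (Solyc02g078210.2.1), which passes ubiquitin to substrates, rose from 8.0 ± 1.64 to 58.5 ± 3.05 FPKM (log2 change 2.74, SE 0.14, adjusted p = 0.000105). An F-box family protein (Solyc08g082510.1.1), of the family that picks substrates for ubiquitin ligases, fell from 57.6 ± 4.96 to 6.61 ± 1.88 FPKM (log2 change -2.97, SE 0.17, adjusted p = 0.000153). A heat shock protein (Solyc06g052050.2.1) was at 4.19, 1.47 and 5.43 FPKM in wild type and 57.3, 151 and 43.8 in A9 (log2 change 4.08, SE 0.53, adjusted p = 0.00388), with A9 replicate 2 highest.

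Proteins of mobile elements had the highest percentage of rises among the lists with at least 10 measured members. Of 108 measured, 59 rose (54.6%, beside 10.1% over all proteins) and 8 fell (7.41%, beside 12.2%), with a median change of 0.53. The 59 stayed between 50 and 57 without 1 library. The 8 became 4 without wild-type replicate 1 or 3 and 5 without wild-type replicate 2. Counted as single loci, chosen after seeing the data, 365 of 769 were higher (7.73% over all loci) and 65 lower. Their sum was 1882.4, 1817.9 and 1956 FPKM in wild type and 4134, 3940.5 and 3646.3 in A9. A Ty1-type Gag-Pol polyprotein (Solyc00g075040.1.1), the coat and enzyme protein of a retrotransposon, took 140 loci and was at 256, 224 and 253 FPKM in wild type and 678, 635 and 594 in A9 (log2 change 1.38, SE 0.09, adjusted p = 0.000273). Pol polyprotein Solyc08g060910.1.1 was at 102, 80.6 and 107 FPKM and 466, 416 and 392 FPKM in the same order (log2 change 2.14, SE 0.13, adjusted p = 0.000179), and Solyc11g017260.1.1 rose from 20 ± 3.52 to 160 ± 9.3 FPKM (log2 change 2.96, SE 0.13, adjusted p = 8.08e-05). A Mutator-type DNA transposon protein (Solyc09g009990.2.1) fell from 46.7 ± 2.62 to 21.9 ± 2.78 FPKM (log2 change -1.06, SE 0.11, adjusted p = 0.0015). Such elements are near-identical repeats, so the split of reads between copies is uncertain. Loci without fragments were also fewer in A9 than in wild type, and the part of depth and assembly in this rise was not tested.

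Of 6112 loci without any tomato match 988 were higher (16.2%) and 569 lower (9.31%), beside 6.61% and 9.34% of the loci with a match, and no test of that difference was made. Their share of all FPKM was 7.46% to 7.70% in the wild-type libraries and 9.45% to 9.55% in A9. XLOC_086678 was at 0.344, 0.379 and 0.286 FPKM in wild type and 1459.3, 1445.3 and 1462.1 in A9. XLOC_029006 went from 1.04 ± 0.183 to 456 ± 65.1 FPKM. XLOC_069858 was listed at 0 in wild-type replicates 1 and 2 and at 6.16 FPKM in replicate 3, and was between 426 and 555 FPKM in A9. In the other direction, XLOC_083203 was at 43.6, 58.4 and 77.4 FPKM in wild type and was listed at 0 in every A9 library. XLOC_029006, XLOC_069858 and XLOC_083203 are 283, 226 and 241 bases long, near or below the length that the FPKM calculation appears to subtract, so their levels are uncertain. XLOC_086678 is 1975 bases long. Among longer loci that fell, XLOC_045187 (1419 bases) was at 60.9, 59.9 and 75.3 FPKM in wild type and 0.404, 0.345 and 0.328 in A9, and XLOC_045179 (830 bases) fell from 38.2 ± 6.49 to 0.188 ± 0.0936 FPKM.

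The remaining large changes fell outside the lists. Among the rises by ratio was a protein closest to a mitotic checkpoint kinase (Solyc06g051040.2.1), which in other species delays chromosome separation, at 0.0536, 0.0253 and 0.0268 FPKM in wild type and 30.4, 52.8 and 46.7 in A9 (log2 change 5.38, SE 0.20, adjusted p = 3.45e-05). Of its 2 loci 1 is 230 bases long, and both passed the filter only through A9. A major latex-like protein (Solyc05g046150.2.1) rose from 0.965 ± 0.716 to 23.6 ± 10.2 FPKM and also passed only through A9. Importin beta-3 (Solyc01g044360.2.1), a nuclear import receptor that took 100 loci here, was at 1676.8, 1800.2 and 2123.5 FPKM in wild type and 945, 878 and 887 in A9 (log2 change -1.04, SE 0.11, adjusted p = 0.00201). A multidrug resistance protein mdtK (Solyc02g063260.2.1), named after a bacterial efflux carrier, fell from 52 ± 17.1 to 2.69 ± 0.622 FPKM (log2 change -3.80, SE 0.27, adjusted p = 0.000348). Xanthoxin dehydrogenase (Solyc10g083180.1.1), of abscisic acid synthesis, fell from 20 ± 4.79 to 0.938 ± 0.576 FPKM (log2 change -3.45, SE 0.25, adjusted p = 0.000401). Acireductone dioxygenase (Solyc09g082630.2.1), of methionine salvage, fell from 12.7 ± 4.53 to 0.371 ± 0.0284 FPKM. Magnesium transporter MRS2-I (Solyc09g065920.2.1) fell from 32.9 ± 0.642 to 5.37 ± 0.478 FPKM (log2 change -2.41, SE 0.08, adjusted p = 2.86e-05). A 14-3-3 protein (Solyc11g010470.1.1), an adaptor that binds phosphorylated proteins, fell from 39.4 ± 4.87 to 6.32 ± 1.08 FPKM (log2 change -2.47, SE 0.14, adjusted p = 0.000149).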

How the data were processed

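RNA of petunia corollas was sequenced in 9 libraries, of which the 3 wild-type and 3 A9 libraries were compared. The authors deposited FPKM per locus, with a column per library, and per the file headers a second table with the best tomato protein of a locus, its identity in percent, its bit score and its e-value (at most 0.001). FastQC 0.11.2 and Bowtie2 2.2.6 are named by the submitters' processing notes; for the assembler, the FPKM program and any scaling, a name is not given in the sources used here. Groups and replicate numbers were taken from sample titles. No library was a copy of another.

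Loci averaging 1 FPKM or more in the 6 libraries were summed per tomato protein and tested as log2(FPKM + 1) by limma 3.58.1 under R 4.3.3, with a trended variance prior and 2 group means; values are FPKM, so no count model was run. Single loci were tested in the same way, and the summed dehydratase FPKM with an exact permutation test. The fit was checked on simulated data. Depth was estimated from low FPKM values of loci of 700 to 2000 bases: 100% of the values used lay within 0.1 of a whole multiple of 1 fragment. A protein joined 1 of 53 lists when a word pattern matched its tomato name. The members and lists were chosen with earlier results of these data known, and chance word matches were removed from lists after names, and for 4 lists values, had been seen. Named proteins were all of the shikimate and phenylalanine lists, up to 3 called rises and 3 called falls per list by FPKM difference, and, with a mean of at least 5 FPKM and no overlap between groups, the 15 largest rises and falls by log2 change and by FPKM; loci without a match were the 3 largest rises and falls. Not all are printed.

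Replicate numbers are shared by the groups. The deviations from the group mean of libraries with 1 number correlated at 0.249, 0.348 and 0.107 across proteins, all above the limit of 0.1 used for pairing, and those of libraries with different numbers at -0.324 to 0.119. The highest of the latter exceeds the third pair, and the labels give no shared plant, day or batch. All printed calls come from the fit without a block, and values with the replicate number as a block stand beside them where they change a call or move a count by over 1.5 times. Alternatives were the replicate block, all 9 libraries, other scalings, filters, pseudocounts and hit limits, and leaving out each library. No sequence of a locus was used.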

Additional observations from a re-analysis of the deposited data

How the results depend on the processing

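The count of 2837 changed proteins stayed within 1.5 times under all alternatives except a minimum mean of 5 FPKM, which tests fewer proteins (1685 called), and leaving out 1 library, which gave 1225 to 2682. For loci the main count of 8960 became 4270 at that minimum and 4626 to 7316 without 1 library. The share of called proteins that were higher was 45.3%, and 51.9% with no filter and 38.2% at the minimum of 5 FPKM. With the replicate block 3603 proteins and 10042 loci were called, 2725 of the proteins shared with the 2837. Of the 301 named proteins, 8 lost their call under the block and none reversed; 139 lost it without wild-type replicate 3, 29 with the most abundant locus alone and 28 after quantile normalization. The difference of the summed dehydratase FPKM, -0.205, lay between -276 and 287 under its alternatives, with an exact permutation p of at least 0.4. Reversed values were few, and the cause was not tested. Prephenate dehydratase Solyc06g074530.1.1 changed by -0.10 with its most abundant locus alone and by -0.10 to 0.14 without 1 library, and Solyc11g066890.1.1 by -0.23 to 0.06. EPSP synthase Solyc05g050980.2.1 changed by 0.09 after quantile normalization. With the most abundant locus alone, MADS-box-like Solyc05g015720.1.1 changed by 0.10 and Mutator-like transposase Solyc03g093100.1.1 by 0.01, and ubiquitin Solyc08g083120.2.1 changed by 0.10 with loci of at least 500 bases. Changes relative to the median of all proteins, an alternative chosen after seeing the data, move every value by 0.006. With 3 libraries per group, a call lost without 1 library does not show that a protein is unchanged.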
